A study of Mus musculus with 15 samples.

Results

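The genes described here are 10 components of the inflammasome, chosen by symbol: Nlrp3, Naip2, Naip5, Nlrc4, Aim2, Mefv, Pycard, Casp1, Casp4 and Gsdmd. All 10 were among the 20089 genes of the expression table, and all 10 passed the filter on low values that left 11743 genes to be tested. The samples were mouse bone marrow-derived macrophages (BMDMs) from wild-type C57BL/6 mice, profiled by RNA sequencing in 5 groups of 3 samples. Every group had received M-CSF, the growth factor of the macrophage lineage, for 3 days by the deposited description. The control group received M-CSF alone, and the others received M-CSF with either RANKL, the cytokine that drives macrophages to become osteoclasts, or bacterial lipopolysaccharide (LPS), for 4 h or for 3 days (72 h). The study set LPS beside RANKL to separate the osteoclast programme from inflammatory activation. No group was kept in M-CSF alone for the whole 72 h, so the effect of the stimulus at 72 h and that of the longer culture cannot be told apart. The labels do not say whether replicates came from separate animals or cultures, so the p-values measure only the spread between these samples, which may be technical.

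Inflammasomes are cytosolic complexes in which a sensor protein recruits the adaptor ASC, encoded by Pycard, and through it the protease caspase-1. Caspase-1 cuts the precursors of the cytokines IL-1beta and IL-18 and the pore-forming protein gasdermin D, and caspase-11, encoded by mouse Casp4, binds cytosolic LPS and cuts gasdermin D without such a sensor. In macrophages the pathway is usually described in steps, with transcription of its components set by Toll-like receptor and interferon signals before assembly of the complex. Only transcript levels were measured here, not assembly, cleavage or release.

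Transcript levels are given in FPKM, fragments per kilobase of exon scaled to the mapped reads of each sample. Comparisons between genes, including ratios and sums, depend on the gene lengths used for FPKM, which were not checked. These lengths did not follow the longest coding transcript for every gene. In control replicate 1, Aim2 had 759 fragments at 4.01 FPKM and Casp1 had 2523 at 77.6 FPKM. Their longest coding transcripts have 2839 and 1497 bases. Between 18306184 and 20330207 fragments lay on listed genes in each sample, and the inflammasome gene with the fewest, Mefv, still had 235 in its lowest sample. The 10 macrophage markers were above 0 in every group, with a summed level of 7670 to 9350 FPKM in the control samples. The cultures may not have been pure. In the control samples, 12 markers of neutrophils and their precursors summed to between 7940 and 24400 FPKM. Which cells carried these transcripts was not tested. LPS 72 h replicate 3 stood apart from replicates 1 and 2 of its group. Its correlation with the other samples of its group over genes was as low as 0.963, while replicates 1 and 2 reached 0.99 with each other, and its LPS response markers summed to 2060 FPKM against 4470 and 4210. Its macrophage markers summed to 17800 FPKM against 6300 and 8070 and its neutrophil markers to 1820 against 189 and 154, and for 7 of the 10 genes it was the sample of its group nearest to the control mean. The changes against control at LPS 72 h are therefore also given without it. For those 7 genes, leaving out this sample enlarges the change by construction, so the values without it are not separate support.

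The 10 genes lie on 8 chromosomes (GRCm38), with Casp1 and Casp4 neighbours on chromosome 9 and Naip2 and Naip5 neighbours on chromosome 13. Casp1 (chr9:5298517-5307265, plus strand) ends 1562 bases before Casp4 (chr9:5308828-5336783, plus strand), and their annotated transcripts shared no stretch of 50 bases. Naip2 (chr13:100144063-100202092, minus strand) and Naip5 (chr13:100211739-100246323, minus strand) are 9646 bases apart and belong to a family of near copies. Of the 50-base stretches in their transcripts, 19.4% for Naip2 and 36.8% for Naip5 occurred also in other genes, mainly other Naip genes, so their separate levels are uncertain. The other loci are Nlrp3 at chr11:59541568-59566956 (plus), Nlrc4 at chr17:74425438-74459142 (minus), Aim2 at chr1:173350879-173466040 (plus), Mefv at chr16:3707218-3718097 (minus), Pycard at chr7:127989708-127993867 (minus) and Gsdmd at chr15:75862327-75867408 (plus). The span of Aim2 overlaps Cadm3 on the opposite strand and that of Pycard overlaps the unnamed transcript Gm45205 on the opposite strand. The counting was not stated to use strand, so reads of such pairs may not have been told apart. The spans of Naip2 and Nlrc4 overlap processed pseudogenes on their own strand, Gm18413 and CT033749.1, where strand could not tell reads apart.

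The promoters of the neighbours Casp4 and Casp1 are shown because both genes responded to LPS, to different degrees, and those of Nlrp3 and Mefv because these 2 genes responded most. Promoter windows of 300 bases, from 250 before to 50 after the transcript start, were found for 9 of the 10 genes in RefSeq (GRCm38.p6), with no window for Gsdmd. Each window is printed 5′ to 3′ on the strand of its gene in lower case, and capitals mark the letters of the NF-kappaB pattern (GGG, any 3 bases, then TTCC) on either strand.
Casp4 chr9:5308599-5308898, plus: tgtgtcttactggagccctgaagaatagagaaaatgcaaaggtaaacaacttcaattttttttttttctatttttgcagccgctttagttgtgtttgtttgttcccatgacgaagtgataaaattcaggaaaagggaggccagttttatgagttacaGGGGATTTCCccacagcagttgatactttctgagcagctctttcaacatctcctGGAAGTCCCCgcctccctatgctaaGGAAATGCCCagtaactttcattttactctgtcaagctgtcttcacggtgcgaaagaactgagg
Casp1 chr9:5298267-5298566, plus: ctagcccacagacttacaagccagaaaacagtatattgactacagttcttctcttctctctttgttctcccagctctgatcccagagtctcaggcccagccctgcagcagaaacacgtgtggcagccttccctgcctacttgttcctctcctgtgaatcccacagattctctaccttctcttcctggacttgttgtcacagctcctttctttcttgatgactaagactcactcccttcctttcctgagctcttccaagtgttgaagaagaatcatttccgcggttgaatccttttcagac
Nlrp3 chr11:59541319-59541618, plus: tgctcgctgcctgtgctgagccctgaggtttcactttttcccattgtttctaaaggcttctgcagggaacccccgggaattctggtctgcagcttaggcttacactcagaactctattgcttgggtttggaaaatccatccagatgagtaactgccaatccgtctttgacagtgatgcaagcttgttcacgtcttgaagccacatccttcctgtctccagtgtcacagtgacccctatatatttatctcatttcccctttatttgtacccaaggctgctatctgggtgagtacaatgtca
Mefv chr16:3718075-3718374, minus: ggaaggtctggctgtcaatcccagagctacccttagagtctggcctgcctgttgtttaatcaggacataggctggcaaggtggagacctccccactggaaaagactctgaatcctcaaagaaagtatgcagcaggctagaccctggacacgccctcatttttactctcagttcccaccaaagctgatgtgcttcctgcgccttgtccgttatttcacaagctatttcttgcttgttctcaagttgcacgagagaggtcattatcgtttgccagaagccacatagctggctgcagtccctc
The Casp4 window held 3 matches, beginning 93, 39 and 14 bases before the transcript start, the first on the plus strand and the others on the minus strand. A second RefSeq start of Casp4, in the window chr9:5308610-5308909, had the same 3 matches. None of the windows of the other 8 genes held one, and no window of the 9 genes held the interferon-stimulated response pattern (GAAA, any 2 bases, then GAAA) on either strand. Over all 32851 promoter windows of that length, 5.56% held at least 1 match to the NF-kappaB pattern, 0.0213% held at least 3, and 3.44% held the interferon-stimulated response pattern. The 2 patterns can share bases in principle, but no such overlap arose here since the second had no match. These matches describe letters in a window and were not tested for binding. Only this 1 form of the NF-kappaB pattern was searched, so a window without a match may still hold another form.

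**Figure D1:**
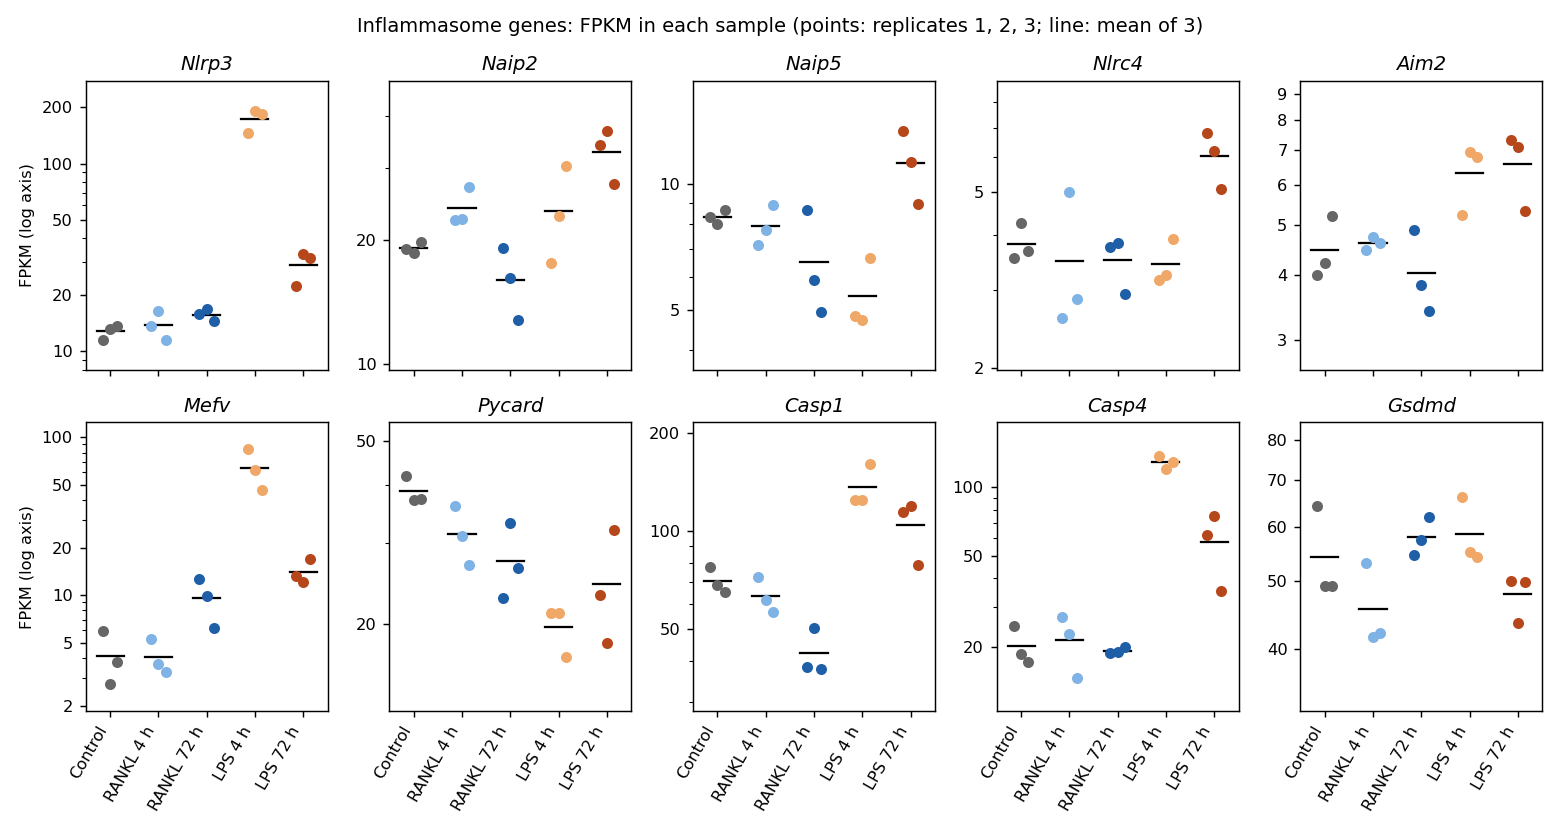
FPKM (log axis) of the 10 genes in each of the 15 samples, with points for replicates 1, 2 and 3 and a line at the mean of 3. Nlrp3, Mefv and Casp4 reached their highest levels at LPS 4 h, at 46.4 FPKM or more in every sample, while Pycard was highest in the control samples.

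LPS for 4 h raised 4 of the 10 genes and lowered 2, against 48.1% of all tested genes changed (8.43% higher and 39.7% lower). The sensor genes Nlrp3 and Mefv rose 13.3-fold and 15.4-fold, the caspase genes Casp4 and Casp1 rose 6.49-fold and 1.92-fold, and the adaptor gene Pycard and the sensor gene Naip5 fell. A gene was called changed when its fold change was above 1.5 or below 0.66 and its limma p, adjusted by the Benjamini-Hochberg method over all tested genes, was under 0.05. Fold changes are on the scale of log2(FPKM + 0.1). The median tested gene moved by -0.52 on this log2 scale at LPS 4 h, and 8 of the 10 genes lay above that median. Counts there, and the changes of the 10 genes, are therefore also given after subtracting the median gene of every sample (centring). With centring, 7 of the 10 genes were higher and 0 lower, against 29.0% of all tested genes changed (1871 of 11743 higher and 1529 lower). The centred changes were 4.3 for Nlrp3, 4.51 for Mefv and 3.27 for Casp4, which passed, and 0.42 for Nlrc4, which did not. Those of the other genes stand with each gene. LPS for 72 h raised 5 genes and lowered 1, against 27.4% of all tested genes changed (13.0% higher and 14.4% lower). RANKL for 72 h raised 1 and lowered 1, against 24.2% changed (16.6% higher and 7.54% lower), and RANKL for 4 h changed 0, against 0.119%. Without LPS 72 h replicate 3, 7 genes were higher and 1 lower at LPS 72 h, against 33.7% of all tested genes changed. The log2 fold changes without it were 1.08 for Nlrp3, 1.66 for Mefv, 0.88 for Naip2 and 0.75 for Nlrc4, which all passed, and 0.55 for Naip5 (limma adjusted p = 0.0509) and -0.20 for Gsdmd, which did not, while those of the other 4 genes stand with each gene. Samples of the compared groups did not overlap for 7 of the 10 genes at LPS 4 h (66.8% of all tested genes) and for 9 at LPS 72 h (44.1%).

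**Figure D2:**
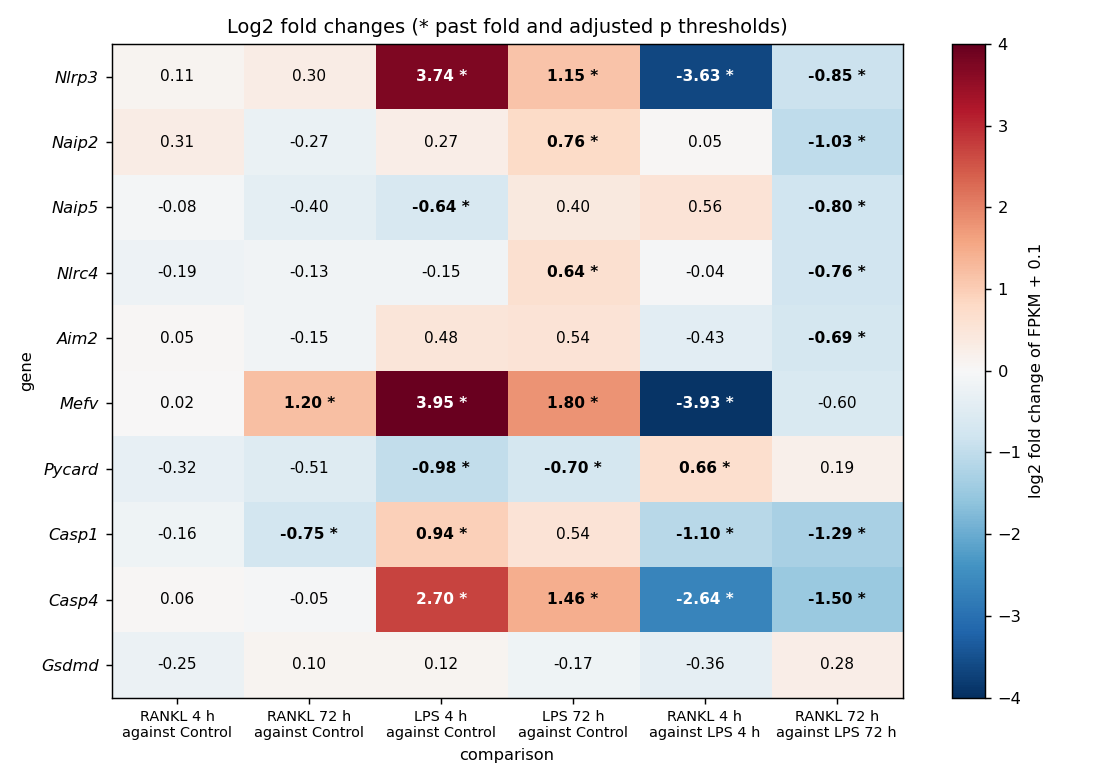
Log2 fold changes of FPKM + 0.1 for the 10 genes (rows) in 6 comparisons (columns), with bold values and an asterisk where both the fold and the adjusted p thresholds were passed. The column for RANKL 4 h against control has no asterisk, and the 7 in the last column are all negative.

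Nlrp3 encodes the sensor that responds to potassium efflux and many forms of membrane damage. Its level was 11.5, 13.2 and 13.7 FPKM in the control samples, 13.7, 16.5 and 11.5 at RANKL 4 h and 15.9, 16.8 and 14.5 at RANKL 72 h. At LPS 4 h it was 145, 191 and 183 FPKM, and at LPS 72 h 22.3, 33.0 and 31.4. All 3 LPS 4 h samples lay above every other sample of the series, the LPS 72 h samples came next, and the RANKL 4 h and control samples overlapped. The log2 fold change against control was 3.74 at LPS 4 h (SE 0.17, limma adjusted p = 2.75e-09) and 1.15 at LPS 72 h (SE 0.17, limma adjusted p = 0.000199). At RANKL 72 h the samples were all above control, but the log2 fold change of 0.30 did not pass (limma adjusted p = 0.195) and was 0.08 with centring.

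Mefv encodes the sensor protein pyrin and was the only one of the 10 genes that was called higher after each of LPS 4 h, LPS 72 h and RANKL 72 h. Its level was 5.91, 2.74 and 3.77 FPKM in the control samples, 5.29, 3.67 and 3.25 at RANKL 4 h and 12.7, 9.86 and 6.21 at RANKL 72 h. After LPS for 4 h it was 83.7, 62.1 and 46.4 FPKM, and at LPS 72 h 13.2, 12.2 and 16.9. The RANKL 72 h samples all exceeded the control samples, though the lowest of them, replicate 3, was close to the highest control sample. The log2 fold changes against control were 3.95 at LPS 4 h (limma adjusted p = 3.27e-07), 1.80 at LPS 72 h (limma adjusted p = 0.000675) and 1.20 at RANKL 72 h (SE 0.31, limma adjusted p = 0.0108). Without control replicate 2 the value at RANKL 72 h was 0.95 (limma adjusted p = 0.0515). Control replicate 2, which had the lowest Mefv level, also had the lowest summed neutrophil markers of the control samples, 7940 FPKM against 24400 and 21700. At RANKL 72 h, where Mefv was higher, the summed neutrophil markers were lower, at 7670, 3730 and 1910 FPKM with 6 of 12 markers lower than in control, and 10 stromal markers summed to 2210, 1010 and 498 FPKM against 183 to 374 in control. At LPS 72 h, 12 of 12 neutrophil markers were lower and their sum was 154 to 1820 FPKM. The part of other cell types in the level of Mefv was not tested. In these bulk samples fewer cells of a type and less RNA per cell cannot be told apart.

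Naip2 and Naip5 encode the receptors for bacterial type III secretion components and for flagellin, which act together with the product of Nlrc4. Naip2 measured 19.1, 18.6 and 19.8 FPKM in the control samples, 22.4, 22.5 and 26.9 at RANKL 4 h, 19.2, 16.2 and 12.8 at RANKL 72 h, 17.6, 22.9 and 30.3 at LPS 4 h and 34.0, 36.9 and 27.4 at LPS 72 h. Naip5 measured 8.35, 8.03 and 8.68 FPKM in the control samples, 7.13, 7.77 and 8.89 at RANKL 4 h, 8.65, 5.88 and 4.95 at RANKL 72 h, 4.84, 4.73 and 6.64 at LPS 4 h and 13.4, 11.3 and 8.98 at LPS 72 h. Both genes were thus highest at LPS 72 h, where every sample exceeded every control sample, while at LPS 4 h the samples of Naip2 straddled the control samples and those of Naip5 lay below them. Naip2 passed at LPS 72 h (log2 fold change 0.76, limma adjusted p = 0.0074), and Naip5 did not (0.40, limma adjusted p = 0.141). At LPS 4 h Naip5 fell by 0.64 on the log2 scale (limma adjusted p = 0.0162), but with centring its change was -0.07 and did not pass, while that of Naip2 went from 0.27 to 0.83 and passed. Because these near copies share sequence, their FPKM were also summed, and the sum of both changed by 0.05 at LPS 4 h (limma adjusted p = 0.846) and by 0.66 at LPS 72 h (limma adjusted p = 0.0152). Including every Naip gene in the sum gave 0.58 at LPS 72 h, which is under the fold threshold.

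Nlrc4, which the NAIP receptors recruit, had the lowest mean FPKM of the 10 genes in the control samples. It measured 3.54, 4.26 and 3.68 FPKM there, 2.60, 5.0 and 2.86 at RANKL 4 h, 3.75, 3.84 and 2.94 at RANKL 72 h, 3.17, 3.24 and 3.91 at LPS 4 h and 6.80, 6.19 and 5.09 at LPS 72 h. The LPS 72 h samples lay above every other sample, and the other 4 groups overlapped each other. The log2 fold change at LPS 72 h was 0.64 (SE 0.22, limma adjusted p = 0.0369). This call was lost with centring (0.56), and on leaving out any of the control samples or LPS 72 h replicate 1 or 2 (0.55 to 0.72, limma adjusted p = 0.0518 to 0.126).

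Aim2 encodes the sensor of cytosolic DNA. Its level was 4.01, 4.23 and 5.21 FPKM in the control samples, 4.49, 4.74 and 4.62 at RANKL 4 h, 4.90, 3.83 and 3.41 at RANKL 72 h, 5.24, 6.93 and 6.79 at LPS 4 h and 7.34, 7.09 and 5.33 at LPS 72 h. Each LPS sample exceeded each control sample, in some cases narrowly, and the RANKL samples overlapped the control samples. The log2 fold changes of 0.48 at LPS 4 h and 0.54 at LPS 72 h had limma adjusted p of 0.0308 and 0.0305 but stayed under the fold threshold. With centring the value at LPS 4 h was 1.05 and passed, and without LPS 72 h replicate 3 the value at 72 h was 0.68 and passed (limma adjusted p = 0.0077).

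Pycard, the gene of the adaptor ASC, was the only one of the 10 genes whose level was lower than in control after both LPS 4 h and LPS 72 h. It measured 41.9, 37.1 and 37.3 FPKM in the control samples, 36.1, 31.0 and 26.8 at RANKL 4 h and 22.7, 33.1 and 26.4 at RANKL 72 h. At LPS 4 h it was 21.1, 21.1 and 16.9 FPKM, and at LPS 72 h 23.1, 18.2 and 31.9. Every stimulated sample lay below every control sample, and the 4 stimulated groups overlapped in part. Pycard fell by 0.98 on the log2 scale at LPS 4 h (limma adjusted p = 0.000661) and by 0.70 at LPS 72 h (limma adjusted p = 0.0123), but with centring the value at LPS 4 h was -0.41 and did not pass (limma adjusted p = 0.177). The value at LPS 72 h was -0.91 without LPS 72 h replicate 3, the highest of its group, and -0.51 without replicate 2, which lost the call (limma adjusted p = 0.0653). At RANKL 72 h the change of -0.51 did not pass (limma adjusted p = 0.0577), whereas with centring it was -0.73 and passed.

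Casp1, the gene of the central protease, had the highest FPKM of the 10 genes in the control samples. It measured 77.6, 68.5 and 65.3 FPKM there, 72.2, 61.5 and 56.4 at RANKL 4 h and 38.4, 50.4 and 37.8 at RANKL 72 h. With LPS for 4 h it was 124, 124 and 160 FPKM, and at LPS 72 h 114, 119 and 78.6. The LPS samples all lay above the control samples and the RANKL 72 h samples all lay below them. Casp1 rose by 0.94 on the log2 scale at LPS 4 h (SE 0.17, limma adjusted p = 0.000412) and fell by 0.75 at RANKL 72 h (SE 0.17, limma adjusted p = 0.00586), and both calls held with centring (1.51 and -0.97). At LPS 72 h its log2 fold change of 0.54 was under the fold threshold (limma adjusted p = 0.027), and without LPS 72 h replicate 3 it was 0.73 and passed (limma adjusted p = 0.00279). At RANKL 72 h, 9 of 10 osteoclast markers were also higher than in control and their sum was 1720 to 5470 FPKM against 155 to 280, and the part of a change in cell type in the level of Casp1 was not tested.

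Casp4, the gene of mouse caspase-11, showed a larger log2 fold change at LPS 4 h than its neighbour Casp1 and a smaller one than Nlrp3 and Mefv. It measured 24.6, 18.5 and 17.1 FPKM in the control samples, 26.9, 22.7 and 14.6 at RANKL 4 h and 18.8, 18.9 and 19.9 at RANKL 72 h. After LPS for 4 h it was 138, 121 and 129 FPKM, and at LPS 72 h 62.1, 75.0 and 35.0. Every LPS sample lay above every control and RANKL sample, and the RANKL groups overlapped the control group. The log2 fold change was 2.70 at LPS 4 h (SE 0.26, limma adjusted p = 1.48e-06) and 1.46 at LPS 72 h (SE 0.26, limma adjusted p = 0.000712), and the latter was 1.78 without LPS 72 h replicate 3. Gsdmd, the gene of the pore-forming effector gasdermin D, passed in no comparison with control. It measured 64.2, 49.3 and 49.3 FPKM in the control samples, 53.2, 41.6 and 42.2 at RANKL 4 h, 54.6, 57.4 and 61.9 at RANKL 72 h, 66.3, 55.2 and 54.2 at LPS 4 h and 50.1, 43.6 and 49.9 at LPS 72 h. All 4 stimulated groups overlapped the control group. The 95% interval of its log2 fold change was -0.18 to 0.41 at LPS 4 h and -0.46 to 0.12 at LPS 72 h, but with centring the value at LPS 4 h was 0.68 and passed (limma adjusted p = 0.00553).

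**Figure D3:**
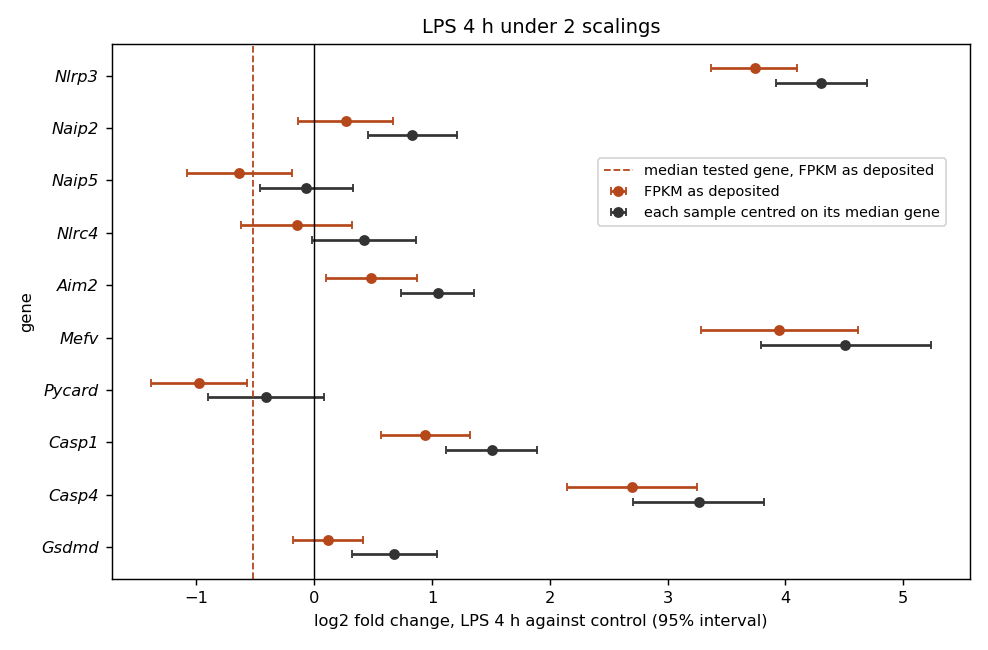
Log2 fold change of each gene at LPS 4 h against control with its 95% interval, from FPKM as deposited (orange) and after centring (black), and a dashed line at the median tested gene as deposited. The 95% intervals of Nlrp3, Mefv, Casp4, Casp1 and Aim2 lay above 0 under both scalings. Pycard and Naip5 were called lower only as deposited.

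The 4 h RANKL group differed from control in none of the 10 genes by limma, also with an unadjusted p under 0.05 (2.56% of all tested genes) and by limma voom on recovered fragments (0.119%). The lowest unadjusted limma p was 0.0905, for Gsdmd. Same-numbered samples of these groups deviated together, and with the replicate number as a block Gsdmd had an unadjusted limma p of 0.0504 (adjusted p = 0.811) and 0 genes passed. Within the 3 pairs Gsdmd, Casp1 and Pycard were lower at RANKL 4 h in 3 of 3 and Naip2 was higher in 3 of 3, while the other 6 genes differed in direction between pairs. The share of all tested genes with 1 direction in 3 of 3 pairs was not computed. These directions therefore cannot be read as a result about the 10 genes. Between the 2 groups, Naip2 was higher and Pycard lower with no overlap of samples, where 10.8% of all tested genes did not overlap. The exact permutation test cannot go below p = 0.1 with 3 samples against 3, so it could not pass for any single gene. At 72 h of RANKL, 4 of the 10 genes did not overlap with control (Nlrp3 and Mefv higher, Pycard and Casp1 lower), beside 49.1% of all tested genes. The median log2 fold change of the 10 genes was -0.14, and that of all tested genes 0.16. With centring 4 genes passed (22.1% of all tested genes), Mefv higher and Naip5, Pycard and Casp1 lower.

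The stimuli were also compared at matched times, which needs no control group. After 4 h, Nlrp3, Mefv, Casp1 and Casp4 were lower with RANKL than with LPS and Pycard was higher, where 8.98% of all tested genes were lower and 41.0% higher. The log2 fold change of RANKL against LPS at 4 h was -3.63 for Nlrp3, -3.93 for Mefv, -1.10 for Casp1, -2.64 for Casp4 and 0.66 for Pycard. The call for Pycard was lost with centring (0.10), which also added Nlrc4, Aim2 and Gsdmd as lower. With centring, 1905 of the 11743 tested genes were lower with RANKL than with LPS at 4 h and 1580 higher. At 72 h, 7 of the 10 genes were lower after RANKL than after LPS and 0 were higher, with 36.1% of all tested genes changed (12.8% lower and 23.3% higher). These 7 were Nlrp3 (-0.85), Naip2 (-1.03), Naip5 (-0.80), Nlrc4 (-0.76), Aim2 (-0.69), Casp1 (-1.29) and Casp4 (-1.50), with limma adjusted p between 5.13e-05 for Casp1 and 0.0118 for Nlrc4. No sample overlapped between the groups for any of the 7, where 51.5% of all tested genes did not overlap. The count was 7 with centring (36.5% of all tested genes) and 7 without LPS 72 h replicate 3, and 5 without RANKL 72 h replicate 3, which lost Nlrc4 and Aim2. Mefv did not pass (-0.60, limma adjusted p = 0.133), nor did Pycard (0.19) or Gsdmd (0.28). Neutrophil markers differed between these groups in the opposite direction, 9 of 12 being higher after RANKL, and their part in these values was not tested.

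The response to LPS at 4 h differed from that at 72 h in 5 of the 10 genes, with 58.1% of all tested genes changed between the times (13.9% lower and 44.2% higher). Nlrp3 (-2.59), Mefv (-2.15) and Casp4 (-1.24) were lower at 72 h than at 4 h, with limma adjusted p between 7.68e-08 and 0.000688, yet all 3 were still above control. Naip5 (1.04) and Nlrc4 (0.79) were higher at 72 h than at 4 h, and both calls were lost with centring (0.39 and 0.14), which added Casp1 (-1.05) and Gsdmd (-0.94) as lower. With centring, 3224 of the 11743 tested genes were lower at LPS 72 h than at LPS 4 h and 2209 higher. Between the RANKL times only Mefv passed (1.19, limma adjusted p = 0.0124), with 23.3% of all tested genes changed. Without RANKL 72 h replicate 1 it was 0.96 and did not pass (limma adjusted p = 0.0541). With centring 3 genes passed between the RANKL times (21.2% of all tested genes), Mefv higher and Naip2 and Casp1 lower.

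Ratios of 2 genes within a sample do not depend on how samples were scaled. Their size depends on the gene lengths used for FPKM, but their differences between groups showed how unequally the components changed. Nlrp3 over Pycard, sensor to adaptor, was 0.274, 0.356 and 0.368 in the control samples, 0.506 to 0.701 at RANKL 72 h, 6.87, 9.05 and 10.8 at LPS 4 h and 0.966, 1.81 and 0.984 at LPS 72 h. The adaptor transcript thus had the higher FPKM of the pair in the control samples, and the sensor transcript did at LPS 4 h. Casp4 over Casp1 was 0.263 to 0.317 in the control samples, 0.375 to 0.526 at RANKL 72 h, 0.804 to 1.11 at LPS 4 h and 0.445 to 0.630 at LPS 72 h. Gsdmd over Casp1 was 0.721 to 0.827 in the control samples, 1.14 to 1.64 at RANKL 72 h, 0.338 to 0.534 at LPS 4 h and 0.366 to 0.635 at LPS 72 h. Each of these 3 ratios separated every one of these 3 stimulated groups from control without overlap, higher for the first 2 ratios, and for the third higher at RANKL 72 h and lower after LPS. Of all tested single genes, 49.1% did not overlap with control at RANKL 72 h, 66.8% at LPS 4 h and 44.1% at LPS 72 h. Ratios of other gene pairs were not computed, so the separation cannot be called particular to these genes. At RANKL 4 h Nlrp3 over Pycard was 0.380 to 0.532, above the control samples, whereas Casp4 over Casp1 (0.259 to 0.373) and Gsdmd over Casp1 (0.677 to 0.749) overlapped them. Pycard over Casp1 was 0.475 to 0.504 at RANKL 4 h, below the 0.540 to 0.571 of the control samples. Naip2 over Naip5 was 2.28 to 2.32 in the control samples, 2.89 to 3.14 at RANKL 4 h and 3.64 to 4.85 at LPS 4 h, with the reservation on shared sequence above. In a family of 56 exact permutation tests on 7 ratios, 34 reached the smallest possible p of 0.1, which was 0.165 after Benjamini-Hochberg adjustment. The summed level of the 10 genes was 236 ± 21.0 FPKM (SD, n = 3) in control, 220 ± 23.1 at RANKL 4 h, 202 ± 12.9 at RANKL 72 h, 620 ± 15.5 at LPS 4 h and 333 ± 37.8 at LPS 72 h. Nlrp3 made up 5.4% of that sum in control and 27.9% at LPS 4 h, while Pycard made up 16.4% and 3.2%.

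**Figure D4:**
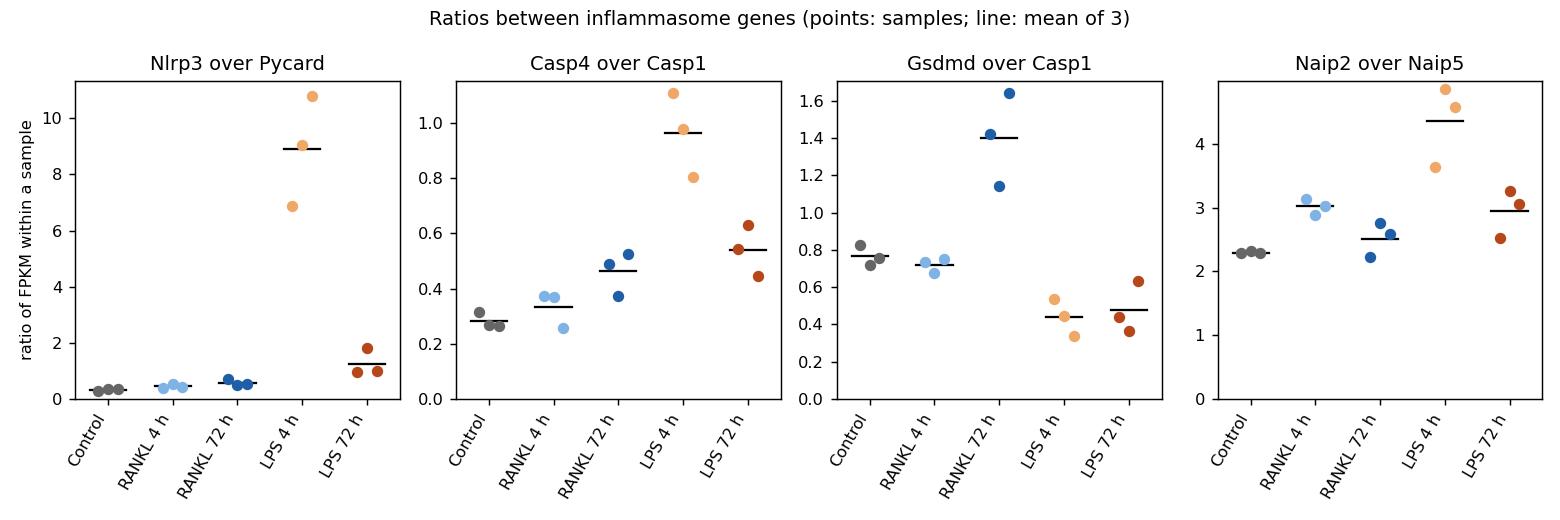
Ratio of FPKM within each sample for 4 pairs of genes (linear axes from 0), with points for the 3 samples of each group and a line at their mean. Nlrp3 over Pycard was between 6.87 and 10.8 at LPS 4 h and at most 1.81 in every other sample, and Gsdmd over Casp1 was above 1 only in the RANKL 72 h samples.

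Other genes of the pathway were counted in 4 lists: further sensors, priming and licensing factors, substrates and release, and inhibitors. The counts at LPS 4 h stand beside 8.43% of all tested genes higher and 39.7% lower. With centring 29.0% were changed, 1871 of 11743 genes higher and 1529 lower. At that time 5 of 16 priming and licensing genes were higher and 8 lower (with centring 5 and 2). The guanylate-binding protein genes Gbp5, Gbp2 and Gbp3, whose products act at bacterial membranes upstream of caspase-11, rose by 5.70, 3.14 and 2.88 on the log2 scale. P2rx7, the ATP-gated channel upstream of NLRP3, fell by 1.72 and the potassium channel gene Kcnk6 by 1.99, and both calls held with centring. Among 9 substrate and release genes, 3 were higher and 2 lower (with centring 5 and 1, where Hmgb1 at -0.25 no longer passed), led by Il1b, from 3.99 ± 2.71 to 1100 ± 193 FPKM (SD, n = 3, log2 fold change 8.25), and Il1a (7.40). Among 13 inhibitor genes, 4 were higher and 1 lower (with centring 7 and 0), and Tnfaip3, an editor of ubiquitin chains that restrains NF-kappaB signalling, rose by 4.14 and the IL-1 receptor antagonist gene Il1rn by 3.59. Of 15 further sensor genes, 6 were higher and 7 lower (with centring 7 and 4), with Ifi205 (4.34) and Nod2 (3.04) higher and Nlrp1b (-2.46) and Nlrx1 (-1.77) lower. The 10 LPS response markers, one of which is Il1b, were all higher at that time.

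At LPS 72 h, where 13.0% of all tested genes were higher and 14.4% lower, 1 further sensor gene was higher and 4 lower, and of the priming and licensing genes 0 were higher and 2 lower, Kcnk6 (-1.23) and Fadd (-0.95). P2rx7 no longer passed. Of the substrate and release genes, Il1b (4.78) and Il1a (4.06) were higher, and Dfna5 (-0.77), a gasdermin gene, and Hmgb1 (-0.76), the gene of a nuclear protein released from dying cells, were lower. Of the inhibitors 1 was higher and 4 lower, led by Serpinb1a (-5.43), an inhibitor of neutrophil proteases. The 12 neutrophil markers fell together with Serpinb1a in that comparison, and their part in it was not tested. Without LPS 72 h replicate 3, 4 inhibitor genes were higher and 4 lower, Fadd (-0.48) no longer passed, and the counts of the further sensors (1 and 4) and of the substrates (2 and 2) did not move. At RANKL 72 h, where 16.6% of all tested genes were higher and 7.54% lower, 6 of 13 inhibitor genes were lower and 0 higher, among them Il18bp, the IL-18 binding protein (-2.38), with a list median of -1.17 beside 0.16 for all tested genes. The control samples were uneven, with Il18bp at 264, 108 and 82.3 FPKM and LPS response markers summing to 982, 453 and 198 FPKM. At RANKL 72 h Il18bp was 41.8, 30.7 and 13.0 FPKM and these markers summed to 96.5, 139 and 84.5 FPKM. Of the further sensors 1 was higher, Nlrp10 (1.98), and 6 lower, including Ifi204 (-1.84). Of the priming and licensing genes 0 were higher and 3 lower (with centring 0 and 5), namely Irgm1 (-1.56), the ATP-gated channel gene P2rx4 (-0.90) and the pannexin channel gene Panx1 (-0.64). Of the substrate and release genes, Il1a (-1.98) and Mlkl (-1.30), the executor of necroptosis, were lower and 0 were higher. In the same comparison 6 of 12 neutrophil markers were lower and 0 higher, their sum was 1910 to 7670 FPKM against 7940 to 24400 in control, and their part in these list counts was not tested. At RANKL 4 h, 0 genes of the 4 lists passed by limma.

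**Figure D5:**
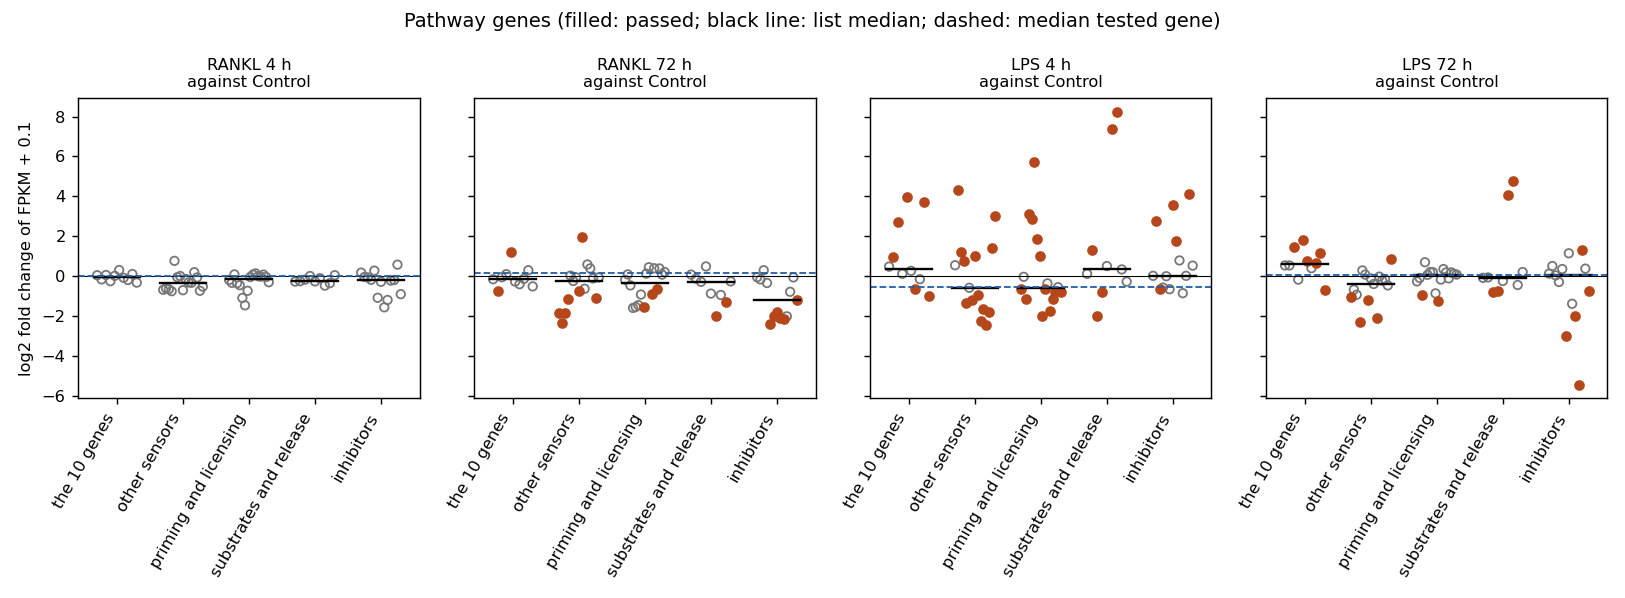
Log2 fold changes of FPKM + 0.1 against control for the 10 genes and the 4 pathway lists in each stimulated group, with filled points for genes that passed, a black line at each list's median and a dashed line at the median tested gene. At RANKL 4 h no point is filled, and at LPS 4 h filled points lie on both sides of 0 in every list.

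The genes whose levels followed each inflammasome gene most closely were read from Pearson's r on log2(FPKM + 0.1) over the 15 samples among 9486 genes, as a description. These samples fall into 5 groups, so most of the likeness is between groups. Casp4 was most like Il1b and Il6 (both 0.98), Casp1 like Il12a and Cd274 (both 0.97), Nlrp3 like Lrrc8c (0.99) and Tnip1 (0.98), and Mefv like Pim2 (0.98) and Sdc4 (0.97). Pycard was most like Cdc42se1 (0.94) and Commd1 (0.93), Naip2 like Jag1 and Tbc1d9 (both 0.93), Naip5 like Ctps2 (0.95) and Ptbp2 (0.94), and Aim2 like Krit1 (0.94) and Syk (0.92). The closest genes were less alike for Nlrc4 (Dhx38, 0.85) and Gsdmd (Anp32a, 0.86). Among the 10 genes themselves, Nlrp3 ran with Mefv (0.93) and Casp4 (0.92), and Pycard ran against Casp4 (-0.74).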

How the data were processed

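Total RNA from 15 samples of mouse BMDMs was sequenced from mRNA libraries, and the authors estimated FPKM per gene with StringTie and Ballgown. The deposited FPKM table held 1 column per sample. The submitters' processing notes name GRCm38.p4 and mm10, while the aligner and annotation are not given in the sources used here. The study's methods describe 4 days of M-CSF culture for BMDMs where the deposited description gives 3 days. The last entry of the table, Ttk, was incomplete, and genes after it were not analysed here.

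Samples were grouped by their labels. The 11743 genes whose mean level reached 0.1 FPKM were fitted in 1 limma model (limma 3.58.1, R 4.3.3, eBayes with a trend) of log2(FPKM + 0.1) over the 5 groups. The study's fold thresholds of 1.5 and 0.66 were kept, with a Benjamini-Hochberg adjusted p under 0.05 in place of its unadjusted p, which was run as an alternative. FPKM values recovered whole fragments for 100% of the 14485 genes above 0 in at least 3 samples (tolerance 0.01 fragments), which gave the depth, 18306184 to 20330207 fragments, and allowed limma voom as an alternative. FPKM depend on the total of each sample, so a few very abundant genes or a broad shift lower all others. Further alternatives were other pseudocounts and filters, equal sums, centring on the median gene, summed Naip genes, the replicate number as a block, and leaving out each sample. Samples with the same number deviated together (correlation of deviations from the group means over 9486 genes) by 0.71 to 0.84 between RANKL 4 h and control, 0.44 to 0.62 between LPS 4 h and control, 0.55 to 0.69 between the 4 h groups, 0.14 to 0.32 between RANKL 72 h and control and 0.16 to 0.25 between the RANKL times, whereas the 3 comparisons with LPS 72 h gave -0.23 to 0.18. The numbers were therefore taken to pair the samples in the first 5 of these comparisons.

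Loci and shared sequence came from GENCODE M21 (GRCm38), and promoters from RefSeq (GRCm38.p6). All 10 genes were named, and other pathway genes were named where they passed with a mean of at least 1 FPKM in some group, at most the 3 largest per direction, list and comparison. The genes and lists were chosen with earlier results of these data known. The scripts were tested on simulated data.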

Additional observations from a re-analysis of the deposited data

Results flagged for a closer look

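In 6 cases the response of a gene to a stimulus differed between 4 h and 72 h by the limma contrast of the 2 times, in which the shared control samples cancel. Of the 10 genes, 5 changed between the LPS times, beside 58.1% of all tested genes, and 1 between the RANKL times, beside 23.3%. After LPS the response at 72 h minus that at 4 h, on the log2 scale, was -2.59 for Nlrp3, -2.15 for Mefv, -1.24 for Casp4, 1.04 for Naip5 and 0.79 for Nlrc4. For the first 3 genes every LPS 72 h sample lay below every LPS 4 h sample, and for the last 2 every one lay above. With centring on the median gene, the differences for Naip5 (0.39) and Nlrc4 (0.14) did not pass. After RANKL the difference for Mefv was 1.19, with all 3 samples at 72 h above all 3 at 4 h, and without RANKL 72 h replicate 1 it was 0.96 and did not pass. The share of all tested genes whose samples did not overlap between the times is not given here for either stimulus. These separations therefore cannot be read as a result about the 10 genes. Separate levels of Naip5 are uncertain because of sequence shared with other Naip genes, and the sum of Naip2 and Naip5 differed between the LPS times by 0.62 (limma adjusted p = 0.0106). Whether single samples stood far from their group was not examined by a gap test, since groups of 3 are too small for it.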

How the results depend on the processing

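Of 1392 values of single genes under the alternatives, 1333 kept their call, and 33 of these, called neither as reported nor under the alternative, changed sign (9 of them with centring, such as Gsdmd at RANKL 72 h, from 0.10 to -0.12). With centring on the median gene, 4 of the 10 genes changed at RANKL 72 h against control and 3 between the RANKL times, where 2 and 1 did on FPKM as deposited, and the other changes of call with centring at LPS 4 h are given in the text above. On leaving out 1 sample the counts ranged from 5 to 7 at LPS 4 h, 4 to 8 at LPS 72 h, 0 to 0 at RANKL 4 h and 1 to 3 at RANKL 72 h against control, 5 to 5 between the stimuli at 4 h, 5 to 7 between them at 72 h, 1 to 2 between the RANKL times and 5 to 6 between the LPS times. The count of 8 at LPS 72 h arose without LPS 72 h replicate 3, which added Casp1 and Aim2, and that of 4 without LPS 72 h replicate 2. The count of 1 at RANKL 72 h arose without control replicate 2. The fall of Naip5 at LPS 4 h was lost without LPS 4 h replicate 1 (-0.57) or 2 (-0.55) and with a pseudocount of 1 (-0.56). At that time the sum of Naip2 and Naip5 changed by 0.05 and the sum of every Naip gene by -0.05, and neither sum passed. The lower Aim2 level of RANKL 72 h against LPS 72 h was lost with a pseudocount of 1 (-0.59). Nlrc4 at LPS 72 h was lost with a pseudocount of 1 (0.54), with no filter on low values (limma adjusted p = 0.0503) and with equal sums (limma adjusted p = 0.0521). The higher Pycard level of RANKL 4 h against LPS 4 h was lost without LPS 4 h replicate 3 or RANKL 4 h replicate 1 (both 0.56). Calls gained against control were Naip5 (-0.62, without RANKL 72 h replicate 1) and Pycard (-0.66, without RANKL 72 h replicate 2) at RANKL 72 h, Aim2 at LPS 4 h (0.59 without control replicate 3 and 0.61 without LPS 4 h replicate 1), and at LPS 72 h Aim2 (0.65, without control replicate 3) and Casp1 (0.61, without control replicate 1). Between stimuli or times, calls were gained by Naip5 at 4 h (0.71 without LPS 4 h replicate 3 and 0.63 without RANKL 4 h replicate 1), by Naip2 (-0.73, without RANKL 72 h replicate 1) and Casp1 (-0.72, -0.61 and -0.67, without RANKL 72 h replicate 2, RANKL 4 h replicate 2 and RANKL 4 h replicate 3) between the RANKL times, and by Naip2 (0.62 and 0.69, without LPS 72 h replicate 3 and LPS 4 h replicate 3) between the LPS times. The cause of these changes was not tested. A replicate block left the counts of changed genes against control at 6 and 6 after LPS for 4 and 72 h, and at 0 and 2 after RANKL for the same times, and the pairing changed no call of the 10 genes, nor did limma voom on recovered fragments. The depth did not limit these genes, with at least 235 fragments in every sample.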
